A study of Mus musculus with 2 samples.

Results

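The respiratory chain genes of the mouse retina were taken by their symbols, as the genes whose names begin with mt-Nd, mt-Co, mt-Cy, mt-Atp, Ndufa, Ndufb, Ndufc, Ndufs, Ndufv, Sdh, Uqcr, Cox4 to Cox8, Cyc1 or Atp5, without Ndufaf. This gave 103 of the 31053 genes in the expression matrix, of which 13 are coded in the mitochondrial genome and 90 in the nucleus. By name, complex I held 7 mitochondrial-coded and 38 nuclear-coded genes, complex II 8 nuclear-coded genes, complex III 1 and 9, complex IV 3 and 18, and complex V 2 and 17. Among the 90, 5 are not subunits by name (Sdhaf1 to Sdhaf4, which are assembly factors of complex II, and Atp5s), and Atp5o is listed under 2 identifiers.

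The data are counts of unique molecular identifiers (UMIs, which mark single captured RNA molecules) per gene and cell barcode from 1 Chromium run. Per the study, wild-type mouse retinas were electroporated at birth with a plasmid carrying a green fluorescent reporter alone, or the reporter with lamin A (Lmna) or with the lamin B receptor (Lbr), which are proteins that tether heterochromatin at the nuclear envelope, and viable fluorescent cells were sorted from adult retinas. The sorted Control, Lbr and Lmna cells each received a lipid-modified oligonucleotide tag before pooling, which gave 1 library of transcripts and 1 of tags for the same cells (the 2 samples of the series). The labels do not say which tag marks which condition, so the groups are called tag 1, tag 2 and tag 3 throughout, and no direction below belongs to a named condition. The promoter that drives the constructs, the strain of the electroporated animals and the number of animals behind each tag are not given in the sources used here. Each tag is 1 pool with no replicate, so no test was made. Intervals are exact 95% intervals for counting error only, and they are too narrow even for that, because UMIs of a gene came in groups within cells: among genes seen in 2 to 5 rods, 59.1% of the values above 0 were 2 or more.

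The respiratory chain passes electrons from NADH (complex I) and succinate (complex II) through complex III to oxygen at complex IV, and the proton gradient made on the way drives ATP synthase (complex V). Complexes I, III, IV and V are built from subunits of both genomes, while complex II is wholly nuclear-coded, so the mitochondrial transcripts and the nuclear transcripts have to be supplied from separate compartments. In the retina, photoreceptors pack mitochondria into the inner segment and are among the heaviest users of oxygen in the body, and Müller glia are known for a more glycolytic metabolism.

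The mitochondrial-coded genes lie close together on 1 circular chromosome, and 4 neighbouring pairs overlap, which matters for their counts. The sequence of mt-Atp8, the short subunit of complex V, is shown because it shares its last 43 bases with the start of mt-Atp6 (capitals), and both are read from the same transcript. The gene lies at chrM:7766-7969 on the plus strand of GRCm38, and mt-Atp6 runs from base 7927 to base 8607.
mt-Atp8: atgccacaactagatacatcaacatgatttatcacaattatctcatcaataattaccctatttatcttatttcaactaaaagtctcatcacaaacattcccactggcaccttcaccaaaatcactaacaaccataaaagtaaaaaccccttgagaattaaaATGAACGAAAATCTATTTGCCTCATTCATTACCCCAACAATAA
Likewise mt-Nd4l shares 7 bases with mt-Nd4, mt-Atp6 shares 1 base with mt-Co3, and mt-Nd5 shares 14 bases with mt-Nd6 on the opposite strand. Where both genes lie on the same strand, a read that ends in such a stretch can belong to either, so the values of mt-Atp8 and mt-Nd4l in particular are uncertain. In rods of the 3 tags mt-Atp8 had 82, 92 and 13 UMIs where mt-Atp6 had 11405, 9144 and 1309.

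Nuclear-coded respiratory genes are known targets of NRF1, and the core of its motif (10 letters) was searched on both strands in promoters of 300 bases, from 250 before to 50 after the annotated start (RefSeq sequences, GRCm38.p6). A promoter was matched for 73 of 89 member symbols. The letters stood in 5 of the 73 (6.85%), which were Atp5g2, Atp5k, Cox6a1, Ndufa11 and Uqcrc1, and in 1.07% of all 27025 genes with a promoter. The 3 of these genes with most UMIs in rods are shown with the letters in capitals (Atp5k at chr5:108434350-108434649 on the minus strand, Atp5g2 at chr15:102670998-102671297 on the minus strand, Ndufa11 at chr17:56717512-56717811 on the plus strand).
Atp5k: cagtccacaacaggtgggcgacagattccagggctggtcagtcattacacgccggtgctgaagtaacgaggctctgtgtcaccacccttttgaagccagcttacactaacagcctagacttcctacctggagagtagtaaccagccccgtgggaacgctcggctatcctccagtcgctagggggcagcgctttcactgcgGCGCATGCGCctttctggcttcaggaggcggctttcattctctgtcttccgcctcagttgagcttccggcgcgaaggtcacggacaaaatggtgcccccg
Atp5g2: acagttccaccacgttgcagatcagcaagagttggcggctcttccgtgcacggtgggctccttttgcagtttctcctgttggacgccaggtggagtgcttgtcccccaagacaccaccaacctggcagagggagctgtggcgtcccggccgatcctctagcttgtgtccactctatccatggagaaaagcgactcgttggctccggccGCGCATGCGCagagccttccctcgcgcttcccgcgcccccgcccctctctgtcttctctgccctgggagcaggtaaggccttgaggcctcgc
Ndufa11: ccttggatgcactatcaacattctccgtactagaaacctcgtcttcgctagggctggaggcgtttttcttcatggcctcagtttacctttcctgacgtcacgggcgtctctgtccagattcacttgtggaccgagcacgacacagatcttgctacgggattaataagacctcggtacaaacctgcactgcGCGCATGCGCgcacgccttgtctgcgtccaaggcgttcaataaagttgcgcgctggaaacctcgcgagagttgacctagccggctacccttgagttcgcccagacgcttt
The capitals begin 50, 42 and 60 bases before the start. Other letters searched were CCGGAAGT for GABP (5 members, and 4.31% of all genes), the core of the YY1 motif (5 members, 0.995% of all genes), TCAAGGTCA for ERR (2 members, 0.466% of all genes) and TAATCC for the photoreceptor factor CRX (7 members, 8.14% of all genes). Ndufa11 and Ndufs4 held letters of 2 motifs each. A match is a run of letters and not a bound site. In rods Atp5k stood at 698, 554 and 869 CPM in tags 1, 2 and 3, Atp5g2 at 620, 422 and 535 CPM, and Ndufa11 at 481, 443 and 351 CPM, where CPM scales the UMIs of each tag to a total of 1000000. Tag 2 was thus the lowest of the 3 for Atp5k and Atp5g2 and tag 3 for Ndufa11.

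The matrix held 834 barcodes and 2487110 UMIs with a median of 2395 UMIs per barcode. Of these, 409 had 200 to 2500 genes and at most 18% mitochondrial-coded UMIs, the limits the study states, and 340 of them were rod-like cells with a tag: 190 in tag 1, 129 in tag 2 and 21 in tag 3, with 563216, 331957 and 59821 UMIs. The labelled cell type was rods, and all 12 rod markers (Gnat1, Pde6b and others) had UMIs in each tag, at 10.7%, 12.4% and 8.26% of UMIs. Cone markers held 0.157% of UMIs in tag 1 (8 of 8 markers seen), 0.0012% in tag 2 (2 of 8) and 0.480% in tag 3 (7 of 8), while markers of astrocytes were at 0 in every tag and those of the other types held at most 0.158% (red blood cell genes in tag 1). A clustering of all barcodes gave some of these rods to another type and left 181, 128 and 20 as rods, and 3 in tag 1 and 1 in tag 3 were cone-like there. Malat1, a nuclear RNA, had 3309, 171 and 334 UMIs, found in 25, 33 and 2 rods. The called tag held a median of 82.9%, 82.1% and 77.9% of a rod's tag counts.

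Mitochondrial-coded subunits were higher in tag 2 rods than in tag 1 or tag 3 rods, and nuclear-coded subunits were lower there. Across rods of a tag, the 13 mitochondrial-coded genes made up 10.5%, 14.0% and 11.4% of UMIs in tags 1, 2 and 3, with 95% intervals of 10.4 to 10.6, 13.9 to 14.1 and 11.1 to 11.6. The nuclear-coded genes made up 5.44% (5.38 to 5.50), 4.56% (4.48 to 4.63) and 5.98% (5.79 to 6.17). As log2 ratios of CPM, tag 2 over tag 1 was 0.41 (0.39 to 0.43) for the mitochondrial-coded sum and -0.26 (-0.29 to -0.23) for the nuclear-coded sum. Over UMIs that are not mitochondrial-coded, which leave the mitochondrial-coded genes out of the total, the nuclear-coded ratio was -0.20. The limit of 18% acts on the mitochondrial-coded share itself. Together with the limits on genes and the removal of doublets it left 190, 129 and 21 rods. Without a filter, 245, 280 and 35 barcodes of the tags were rod-like in a separate clustering of all barcodes. Over the latter the ratios of tag 2 over tag 1 were 0.71 and -0.12.

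**Figure D1:**
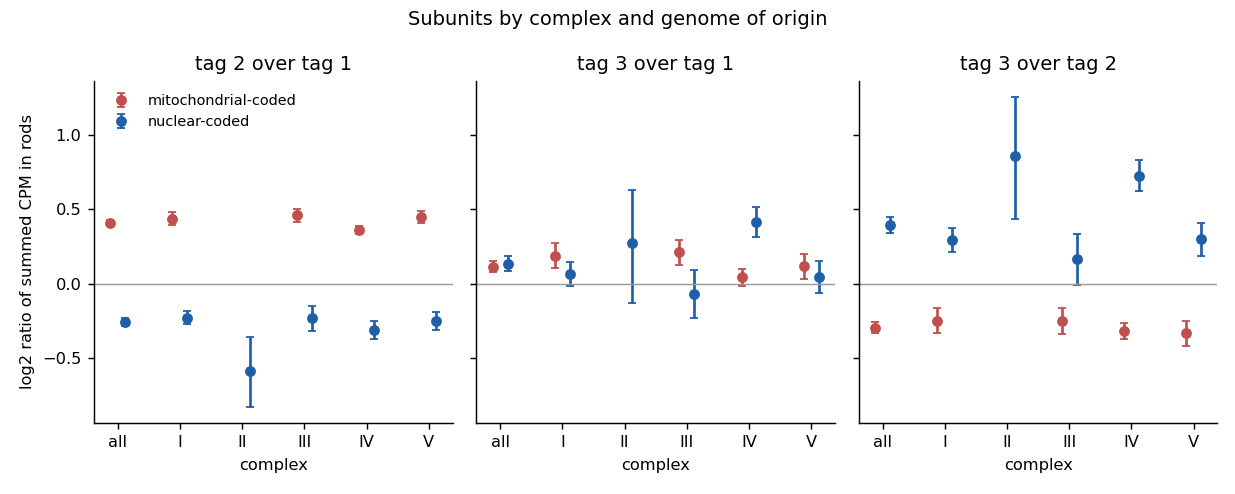
Log2 ratios of summed CPM in rods for the 3 pairs of tags, for all members and by complex, with mitochondrial-coded genes in red and nuclear-coded genes in blue. Bars are 95% intervals for counting error only. In tag 2 over tag 1 the mitochondrial-coded sums lie between 0.36 and 0.46 and every nuclear-coded sum lies below 0.

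The split ran through every complex that has subunits of both kinds. In tag 2 over tag 1, mitochondrial-coded complex I genes were at 0.44 (0.40 to 0.48) and nuclear-coded ones at -0.23 (-0.27 to -0.19). Complex III stood at 0.46 for mt-Cytb and at -0.23 (-0.32 to -0.15) for its nuclear subunits. Complex IV stood at 0.36 (0.33 to 0.39) against -0.31 (-0.37 to -0.25), and complex V at 0.45 (0.41 to 0.49) against -0.25 (-0.31 to -0.19). The genes named for complex II, which has no mitochondrial-coded part, were lowest at -0.59 (-0.83 to -0.35), from 526 UMIs in tag 1 and 206 in tag 2. Much of this sum was not from subunits. The assembly factors Sdhaf1 and Sdhaf4 gave 163 and 137 of these UMIs in tag 1 and 82 and 47 in tag 2. The nuclear-coded difference rested on which rods were taken. Among rods whose called tag held at least 90% of their tag counts (55, 23 and 3 rods), it was 0.0056 while the mitochondrial-coded ratio was 0.46, and with each gene counted at most once per cell it was -0.056.

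Tag 2 exceeded tag 1 for 12 of the 13 mitochondrial-coded genes. Mt-Co3, a core subunit of complex IV, had 22995, 33221 and 26930 CPM in tags 1, 2 and 3, and mt-Cytb, the core of complex III, had 17778, 24449 and 20578 CPM. Mt-Atp6, the proton channel subunit of complex V, had 20250, 27546 and 21882 CPM. For all 3 the order was tag 1, tag 3, tag 2. The catalytic subunit mt-Co1 went another way, with 8148 CPM in tag 1, 8085 CPM in tag 2 and 5165 CPM in tag 3. Its log2 ratios were -0.01 (-0.08 to 0.06) for tag 2 over tag 1 and -0.66 (-0.83 to -0.49) for tag 3 over tag 1, the lowest of the mitochondrial-coded genes in the second pair. Counted once per rod, mt-Co1 was at 0.27 and 0.0043 in these pairs.

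The complex I genes of the mitochondrial genome were spread more widely. Mt-Nd1 had 4915, 5525 and 5399 CPM and mt-Nd2 3965, 5627 and 5132 CPM, so tags 2 and 3 were both above tag 1. Mt-Nd4 did the same at 6577, 9339 and 8325 CPM. Mt-Nd3 (1786, 2169 and 1605 CPM), mt-Nd4l (1016, 1636 and 719 CPM) and mt-Nd5 (1151, 1994 and 986 CPM) were instead lowest in tag 3, so that mt-Nd4l had a log2 ratio of -1.17 in tag 3 over tag 2. In tag 2 over tag 1 mt-Nd5 was at 0.79 (0.64 to 0.95) and mt-Nd4l at 0.69 (0.52 to 0.86). Mt-Nd6, the only member read from the other strand, had 59, 46 and 4 UMIs, and mt-Co2 stood at 16448, 19746 and 16917 CPM. Mt-Atp8 had a log2 ratio of 0.93 (0.48 to 1.38) in tag 2 over tag 1, from the few UMIs given above.

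**Figure D2:**
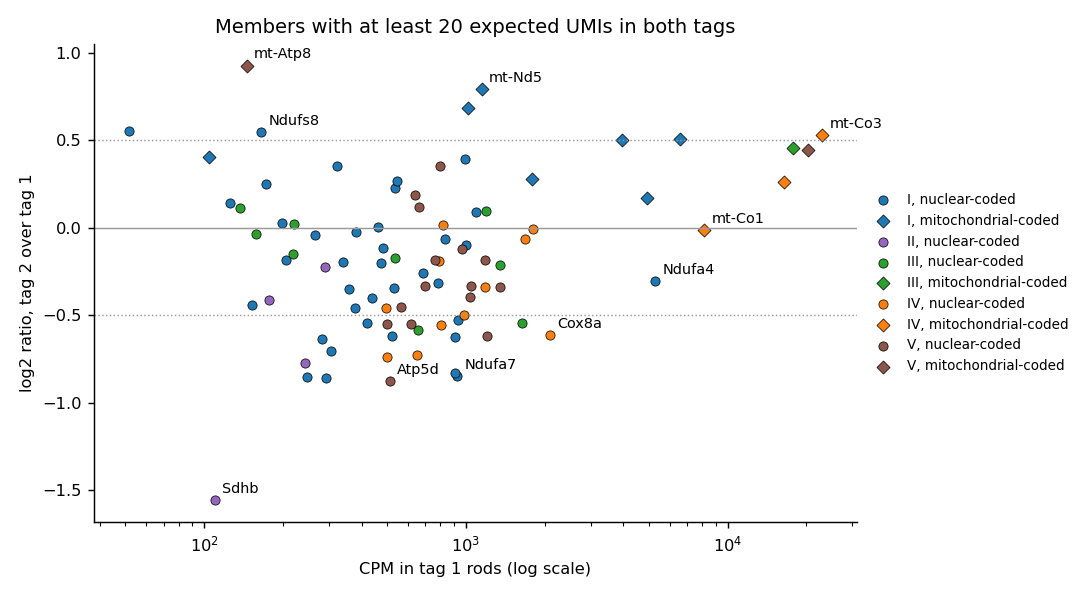
Log2 ratio of tag 2 over tag 1 against CPM in tag 1 rods (log axis) for members for which both tags had 20 or more expected UMIs. Circles are nuclear-coded and diamonds mitochondrial-coded genes, coloured by complex. Dotted lines mark log2 ratios of -0.5 and 0.5. Diamonds lie at or above 0 except mt-Co1 at -0.01. Of the circles, 58 of 76 lie below 0, as do 1208 of all 2203 genes with as many expected UMIs.

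Single nuclear-coded genes were read where at least 20 UMIs were expected in both tags at equal shares, and such genes are called measurable below. In tag 2 over tag 1 this left 76 of the 90 genes. Of these, 58 were below 0, where 1208 of all 2203 genes that met the same minimum were. The median of the 76 was -0.28, beside -0.065 over those 2203 genes. At a log2 ratio of -0.5 or less there were 22 of 76 (28.9%), where 23.8% of all such genes were, so the share of members past the fold on the lower side was near the background. At 0.5 or more there were 2 of 76 (2.63%), where 15.8% of all such genes were. By complex, 10 of 37 measurable genes of complex I, 2 of 9 of complex III, 4 of 11 of complex IV and 4 of 15 of complex V were past the fold on the lower side. Without rods holding 10 or more Malat1 UMIs (18, 4 and 2 rods of the tags), 28 of 75 were lower and 0 higher, where 23.5% and 17.8% of all 2055 measurable genes were.

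The lowest member in tag 2 over tag 1 was Sdhb, the iron-sulfur subunit of complex II, with 62, 12 and 2 UMIs found in 21, 4 and 1 rods of the tags. Its log2 ratio was -1.56 (-2.63 to -0.70). Sdha, the flavoprotein that oxidises succinate, had 178, 133 and 301 CPM, and the membrane anchors Sdhc (21, 12 and 4 UMIs) and Sdhd (14, 1 and 3 UMIs) were too sparse to be read. Next came Atp5d, the delta subunit of the ATP synthase stalk, with 511, 277 and 384 CPM and a ratio of -0.88 (-1.24 to -0.54). Ndufv1 and Ndufv2, which hold the NADH-binding end of complex I, had 247, 136 and 184 CPM and 291, 160 and 134 CPM, so tag 2 was below tag 1 at -0.85 and -0.86. Ndufa7, an accessory subunit, had 929, 515 and 903 CPM with tag 2 lowest, at -0.85 (-1.11 to -0.60) and at -0.29 with the gene counted once per rod.

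A few members stood on the other side. Ndufs8 and Ndufs1, iron-sulfur subunits of complex I, were at 0.55 (0.10 to 0.99) and 0.55 (-0.28 to 1.37) in tag 2 over tag 1, and the second interval includes 0. Ndufs1 had 29, 25 and 0 UMIs, and a count of 0 in tag 3 allows up to 3 UMIs, or 50.1 CPM. Ndufb11 had 996, 1310 and 1003 CPM, at 0.40 (0.21 to 0.58). Atp5b, the catalytic beta subunit of ATP synthase, had 799, 1021 and 819 CPM, at 0.35 (0.15 to 0.56). Ndufa1 was at 0.35 (0.02 to 0.68), but 34 of its 136 UMIs in tag 2 came from 1 rod, and it was at 0.06 without the rod with most UMIs in each tag.

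The members with most UMIs followed the group less evenly. Ndufa4, which is named for complex I and has since been placed with complex IV, had 2983, 1424 and 267 UMIs, and was seen in 179 of 190, 120 of 129 and 19 of 21 rods. Its levels were 5296, 4290 and 4463 CPM, so tag 1 was highest. Cox8a, a small complex IV subunit, had 2100, 1374 and 3243 CPM, with tag 2 lowest and tag 3 highest. Cox6c had 1807, 1798 and 2357 CPM and did not separate tags 1 and 2 (-0.01, interval -0.16 to 0.14). Uqcrh, the hinge protein of complex III, had 1635, 1121 and 1638 CPM and was low in tag 2 alone, while Uqcrq (1349, 1163 and 602 CPM) was low in tag 3. The complex V subunits Atp5l and Atp5j2 had 1346, 1063 and 1605 CPM and 1179, 1036 and 1454 CPM, each lowest in tag 2 and highest in tag 3. Ndufb11 was the complex I member with most UMIs after Ndufa4.

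In tag 3, nuclear-coded members were higher than in the other tags, most clearly those named for complex IV. Their summed log2 ratio was 0.13 (0.08 to 0.18) over tag 1 and 0.39 (0.34 to 0.44) over tag 2, where the mitochondrial-coded sum was at 0.11 (0.08 to 0.15) and -0.29 (-0.33 to -0.26). Complex IV stood at 0.42 (0.32 to 0.51) over tag 1 and 0.73 (0.62 to 0.83) over tag 2, complex I at 0.06 (-0.02 to 0.14) and 0.29 (0.21 to 0.38), complex III at -0.07 (-0.23 to 0.09) and 0.17 (-0.01 to 0.33), and complex V at 0.05 (-0.06 to 0.15) and 0.30 (0.18 to 0.41). The complex II sums rested on 67 UMIs in tag 3, 31 of them from the assembly factor Sdhaf1. They were at 0.27 (-0.13 to 0.63) and 0.86 (0.43 to 1.26). Ndufa4 was counted in complex I here. Its own ratios were -0.24 over tag 1 and 0.06 over tag 2, so counting it in complex IV would lower the complex IV ratios. No sums of the tags were made that way. The 21 rods of tag 3 carry little weight, and cone markers, at 0.480% of their UMIs against 0.157% and 0.0012% in tags 1 and 2, moved with the complex IV values. Without rods that the clustering of all barcodes gave to another type, the nuclear-coded ratios were 0.14 and 0.41. Among the 3 rods with at least 90% of their tag counts in tag 3 the nuclear-coded ratios lay near 0, at -0.023 and -0.029. With each gene's top rod left out of the numerator alone the ratio to tag 1 was -0.20. That setting takes a larger part from 21 rods than from 190, so its sign was not read as a direction. For Cox5a, for example, it removes 19 of 102 UMIs in tag 3 and 23 of 554 in tag 1. The comparisons with tag 1 and with tag 2 share the same tag 3 rods.

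Counted by gene, 13 of 56 measurable nuclear-coded members (23.2%) were higher by the fold in tag 3 over tag 1, where 19.2% of all measurable genes were, and 6 (10.7%) were lower, where 19.7% were. In tag 3 over tag 2, 23 of 51 (45.1%) were higher beside a background of 24.3%, and 2 (3.92%) were lower beside 22.1%. The members' medians were 0.16 and 0.48, and those of all measurable genes 0.017 and 0.031. The highest member in both pairs was Ndufb10, a complex I subunit, with 339, 295 and 802 CPM in tags 1, 2 and 3, though it was seen in only 7 rods of tag 3. Cox5a, a complex IV subunit, had 984, 696 and 1705 CPM, and was at 0.80 (0.47 to 1.10) over tag 1 and 1.30 (0.94 to 1.64) over tag 2. Cox7c (790, 693 and 1337 CPM) and Atp5e (1039, 789 and 1655 CPM) lay the same way, as did Uqcr11 and Ndufa6 at 1.25 and 1.23 over tag 2. For Cox7c, Uqcr11 and Cox8a a single rod gave 23 of 80, 24 of 62 and 34 of 194 UMIs in tag 3, and Ndufa6 was seen in 6 rods there.

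The lowest measurable members of tag 3 were Atp5a1, Ndufb2, Uqcrq, Atp5o and Atp5g3 over tag 1, and Atp5o, Uqcrq, Atp5g3, Ndufb11 and Ndufa11 over tag 2. Atp5a1, the catalytic-head alpha subunit, had 499, 340 and 134 CPM, and its 8 UMIs in tag 3 came from 3 rods (-1.81 over tag 1, interval -3.13 to -0.90). Atp5o (ENSMUSG00000022956) was at -1.05 (-1.86 to -0.41) over tag 1 and -1.24 (-2.06 to -0.59) over tag 2, from 18 UMIs in 6 rods. Atp5g3 had 563, 410 and 301 CPM and Ndufb2 378, 274 and 150 CPM, both highest in tag 1 and lowest in tag 3. Uqcrq was at -1.15 (-1.69 to -0.68) over tag 1 with 15 of its 36 UMIs in 1 rod. Ndufa9 had 97, 68 and 0 UMIs in the tags.

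Other mitochondrial gene lists were read beside the members. In tag 2 over tag 1, the log2 ratio of summed UMIs was -0.29 (-0.40 to -0.18) for 34 assembly factors, -0.24 (-0.34 to -0.13) for 27 import genes, -0.20 (-0.28 to -0.13) for 78 mitochondrial ribosome genes and -0.18 (-0.37 to -0.0036) for 16 citric acid cycle genes. Carriers and channels (10 genes) stood at 0.03 (-0.08 to 0.14), and 14 genes of mitochondrial DNA transcription at -0.02 (-0.32 to 0.26). The first 4 of these lists lay below 0 with their intervals, as did the nuclear-coded chain. The assembly factors include Sdhaf1 to Sdhaf4, which are also members, so that list is not separate from the chain. By gene, 5 of 16 measurable assembly factors, 6 of 9 citric acid cycle genes, 4 of 12 import genes, 17 of 44 mitochondrial ribosome genes and 1 of 8 carriers were lower by the fold, and 2, 1, 3, 9 and 1 were higher, where 23.8% of all measurable genes were lower and 15.8% higher. Cytosolic ribosome genes, another set of short, abundant transcripts, were at -0.08 (-0.11 to -0.06) in tag 2 over tag 1, with 3 of 74 lower and 1 higher. In tag 3 they were at 0.32 (0.28 to 0.36) over tag 1 and 0.40 (0.37 to 0.44) over tag 2, beside 0.13 and 0.39 for the nuclear-coded chain.

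In tag 3 the remaining lists rested on few UMIs. Over tag 1 the assembly factors stood at 0.32 (0.13 to 0.50), import at 0.15 (-0.04 to 0.34), the mitochondrial ribosome at 0.08 (-0.06 to 0.21), carriers at -0.12 (-0.35 to 0.10) and the citric acid cycle at -0.26 (-0.66 to 0.10). Mitochondrial DNA transcription was at -1.95 (-3.38 to -0.99), with 0 of its genes meeting the minimum of expected UMIs. At most 4 genes of any of these lists met it in tag 3.

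Because tag 2 rods had more mitochondrial-coded UMIs, the nuclear-coded genes were next read at matched mitochondrial share. For this, all rod-like barcodes of a clustering of all 834 barcodes were used (245, 280 and 35 in tags 1, 2 and 3), and nuclear-coded UMIs were divided by UMIs that are not mitochondrial-coded, so that they share no UMI with the bins. At 12 to 18% mitochondrial share, where tags 1 and 2 had 83 and 107 rods, nuclear-coded genes made up 6.55% (6.46 to 6.65) in tag 1, 5.32% (5.23 to 5.41) in tag 2 and 7.22% (6.93 to 7.53) in tag 3. Tag 2 over tag 1 was -0.30 (-0.33 to -0.27) there and -0.25 (-0.30 to -0.19) at 18 to 24%. At 6 to 12% the interval included 0, at -0.03 (-0.09 to 0.02). In rods with 200 to 2500 genes, the limit on genes that the study states, these 3 bins stood at -0.36, -0.25 and -0.20 (-0.26 to -0.14). The end bins went both ways, at 0.89 (0.64 to 1.11) under 6%, where tag 2 had 3 rods, and at -0.46 (-0.55 to -0.37) at 24% and over. Within the 12 to 18% bin, 59 of 74 measurable members were below 0 in tag 2 over tag 1. Of all 1863 measurable genes that are not mitochondrial-coded, 940 were below 0. The medians were -0.33 and -0.0054.

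**Figure D3:**
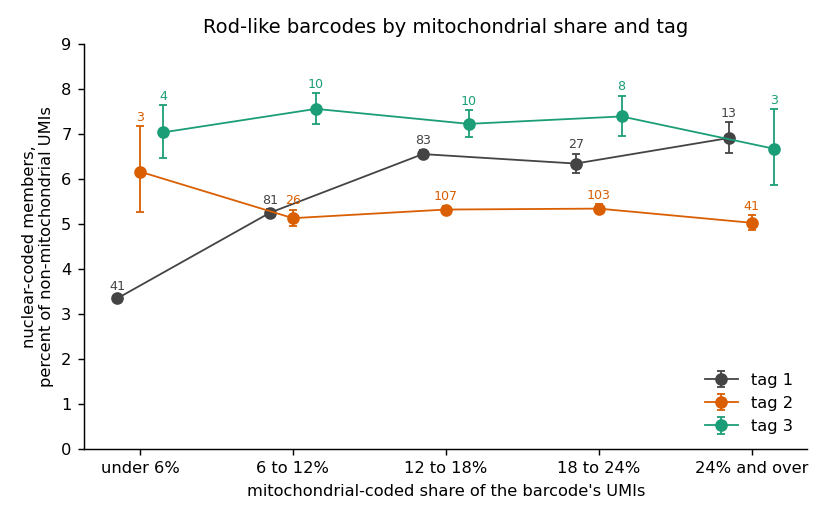
Nuclear-coded members as a percent of non-mitochondrial UMIs in rod-like barcodes, by bin of mitochondrial-coded share and by tag. Bars are 95% intervals for counting error only and the small numbers count barcodes. Tag 1 runs from 3.34% (5.40% without the 3 barcodes of more than 2500 genes) to 6.91% across the bins, while tag 2 stays between 5.02% and 6.16% and tag 3 between 6.67% and 7.56%.

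In tag 1 the nuclear-coded share was 3.34% (3.26 to 3.42) under 6% mitochondrial share, 5.25% at 6 to 12%, 6.55% at 12 to 18%, 6.34% at 18 to 24% and 6.91% (6.57 to 7.26) at 24% and over, and the highest bin exceeded the lowest by a log2 ratio of 1.05 (0.97 to 1.13). Much of this came from 3 barcodes: of the 41 rods under 6%, 3 had more than 2500 genes, with 85822, 19077 and 18735 UMIs and nuclear-coded shares of 1.77%, 2.04% and 2.03%. In rods with 200 to 2500 genes the lowest bin stood at 5.40% (5.25 to 5.56) from 38 rods, and the ratio of the ends was 0.35 (0.27 to 0.44). In tag 2 the same ends differed by -0.30 (-0.53 to -0.05), from 3 rods under 6%, and in tag 3 by -0.08 (-0.31 to 0.15). In the tag 1 rods under 6%, complexes I, III, IV and V stood at 1.40%, 0.389%, 0.672% and 0.792% of non-mitochondrial UMIs against 2.77%, 0.713%, 1.45% and 1.52% at 12 to 18%. In rods with 200 to 2500 genes they stood at 2.25%, 0.639%, 1.18% and 1.22% against 2.90%, 0.748%, 1.53% and 1.57%. The sum is weighted to deep cells: the median rod stood at 5.09% under 6%, at 6.70% at 12 to 18% and at 5.97% at 24% and over. The same rods had more Malat1 (3.62% of non-mitochondrial UMIs in 13 of 41 barcodes, against 0.215% at 12 to 18%), fewer cytosolic ribosome UMIs (6.71% against 11.9%) and fewer rod marker UMIs (8.15% against 12.4%). With 200 to 2500 genes the rods under 6% stood at 1.54%, 9.66% and 11.4% for these. The part of these in the result was not tested. Median depths were 2438 and 3075 UMIs.

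Rod by rod, Spearman's correlation between mitochondrial share and nuclear-coded share was 0.28 over 245 rods of tag 1, 0.01 over 280 of tag 2 and 0.15 over 35 of tag 3, given as a description of cells that share a library. Leaving out rods under 6% gave 0.21, 0.02 and 0.10. In each tag the nuclear-coded share spread widely, from 1.29% to 10.9% with a median of 6.28% in tag 1, from 1.73% to 11.4% with a median of 5.17% in tag 2, and from 1.74% to 10.4% with a median of 7.57% in tag 3. Tags overlapped over nearly the whole range. Rods under 3% numbered 16 of 245 in tag 1, all with less than 12% mitochondrial share, and 16 of 280 in tag 2, of which 2 were below 12%. Few tag 2 rods lay there at all: 3 under 6% and 26 at 6 to 12%, against 41 and 81 in tag 1. The tag 1 rods under 3% include barcodes of 85822, 39588, 19077, 18735 and 18317 UMIs, which lie outside the limits on genes.

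**Figure D4:**
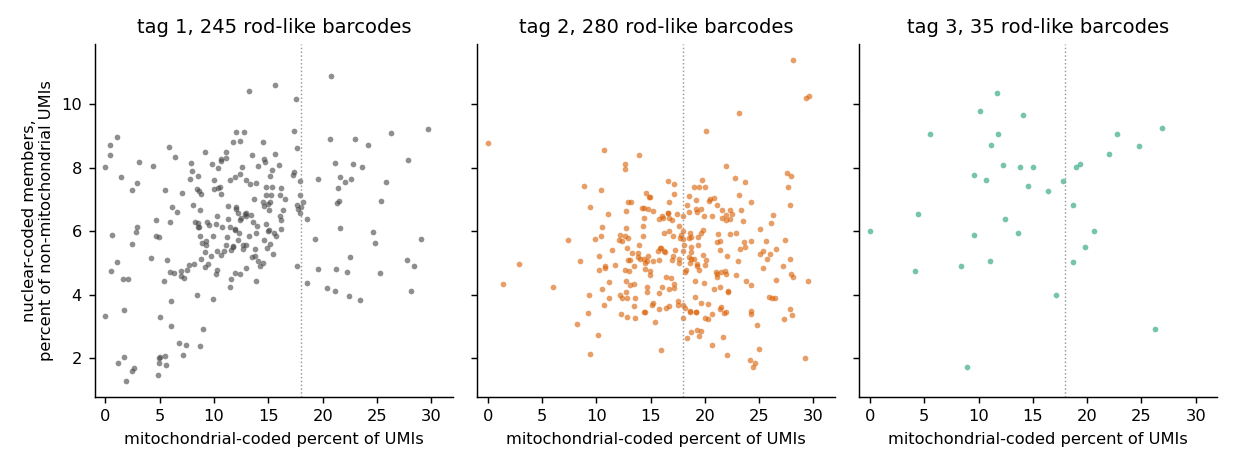
Each point is a rod-like barcode, with its mitochondrial-coded percent of UMIs on the x axis and its nuclear-coded percent of non-mitochondrial UMIs on the y axis, by tag. The dotted line marks the limit of 18%. Of rods under 6% on the x axis, 11 of 41 in tag 1, 0 of 3 in tag 2 and 0 of 4 in tag 3 lie under 3% on the y axis, and medians on the y axis are 6.28%, 5.17% and 7.57%.

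Among the mitochondrial-coded UMIs themselves the make-up was steadier. Across the bins with at least 10 rods, complex IV held 44.9% to 47.5% in tag 1 and 43.3% to 45.5% in tag 2. The exception was mt-Co1, which held 7.41% to 11.5% of mitochondrial-coded UMIs in the bins of tag 1 and 5.40% to 6.44% in those of tag 2.

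Cell types were compared next, without the limits on genes and mitochondrial share. In the clustering of all barcodes, named from marker genes, mitochondrial-coded genes made up 15.3% (15.3 to 15.4) of UMIs in 669 rod-like barcodes, 20.3% (19.9 to 20.8) in 10 cone-like, 22.5% (22.4 to 22.6) in 47 bipolar-like, 55.8% (55.6 to 56.1) in 91 Müller glia-like and 5.60% (5.43 to 5.77) in 17 microglia-like barcodes. Nuclear-coded genes made up 5.40% (5.37 to 5.44), 5.90% (5.63 to 6.18), 5.69% (5.60 to 5.78), 6.03% (5.85 to 6.21) and 2.02% (1.91 to 2.13) of the UMIs that are not mitochondrial-coded. The rod-, cone-, bipolar- and Müller glia-like barcodes thus lay within 5.40 to 6.03%, and the microglia-like barcodes, the immune cells of the retina, stood apart. The limits changed this: in barcodes that passed, the mitochondrial-coded share fell to 12.2% in 4 cone-like, 14.9% in 16 bipolar-like, 6.56% in 8 Müller glia-like and 4.28% in 11 microglia-like barcodes, and the nuclear-coded share was 5.97% in rods, 5.23%, 5.27%, 3.57% and 1.74%. Median depths without the limits were 2446, 2616, 7556, 1167 and 3372 UMIs. Tags were pooled here, and the types were spread unevenly over tags 1, 2 and 3. Bipolar-like barcodes numbered 0, 31 and 1 there, cone-like ones 7, 0 and 1, and rod-like ones 245, 280 and 35. For bipolar-like and cone-like barcodes, differences from rods therefore cannot be told apart from differences between the tags.

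**Figure D5:**
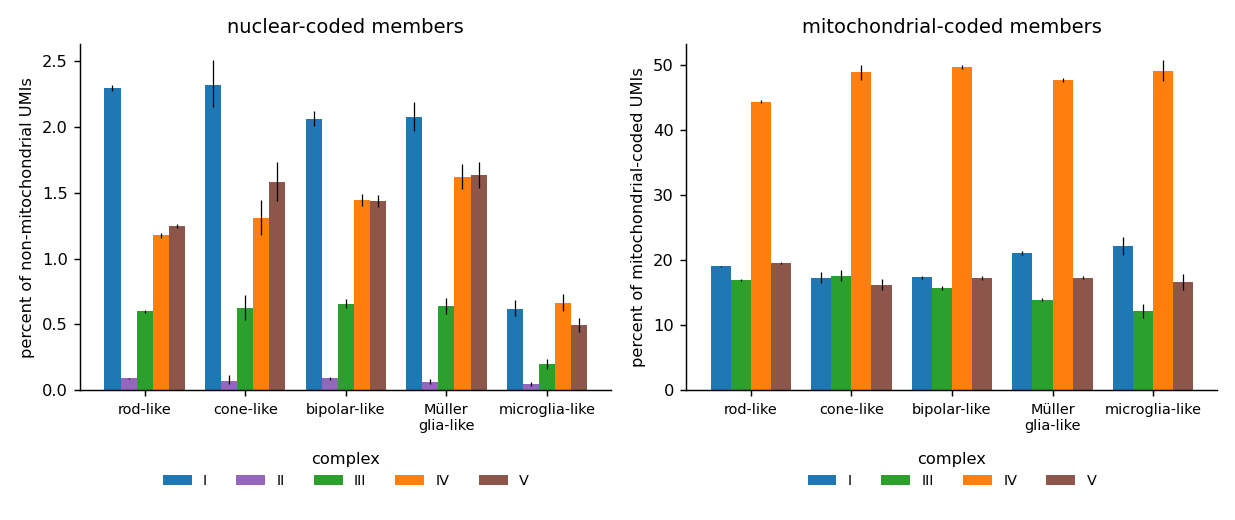
Shares of members by complex in the 5 cell types, for nuclear-coded genes over non-mitochondrial UMIs (left) and mitochondrial-coded genes over mitochondrial-coded UMIs (right). Bars start at 0 and error bars are 95% intervals for counting error only. Nuclear-coded complex I, with Ndufa4 counted in it, is the tallest bar in every type but the microglia-like barcodes, at 2.29% in rods and 0.620% there. With Ndufa4 counted in complex IV, bipolar-like barcodes would stand at 1.65% for complex I and 1.86% for complex IV.

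Of the 91 Müller glia-like barcodes, 8 passed the limits on genes and mitochondrial share and 82 have no entry in the tag matrix. In those 8 the log2 ratio to rods was -0.87 for mitochondrial-coded genes, and both measures were below those of rods. Gnat1, the rod transducin subunit, had a UMI in 13.2% of Müller glia-like, 10.6% of bipolar-like and 11.8% of microglia-like barcodes and in 95.1% of rod-like ones, so a rod transcript was counted in each of these types. Its part in the values below was not tested.

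By complex, nuclear-coded complex I held 2.29% (2.27 to 2.32) of non-mitochondrial UMIs in rods, 2.32% (2.14 to 2.50) in cones, 2.06% (2.01 to 2.12) in bipolar cells, 2.07% (1.97 to 2.18) in Müller glia and 0.620% (0.561 to 0.684) in microglia. Ndufa4 alone gave 0.506% of non-mitochondrial UMIs in rods and 0.188% in Müller glia within these sums, and without it complex I stood at 1.79% (1.77 to 1.81) in rods and 1.89% (1.78 to 1.99) in Müller glia, so rods were no longer above Müller glia. Complex IV was at 1.17% (1.16 to 1.19) in rods, 1.31% (1.18 to 1.45), 1.44% (1.40 to 1.49), 1.62% (1.52 to 1.72) and 0.664% (0.603 to 0.730) in microglia. With Ndufa4 counted in complex IV these were 1.68%, 1.70%, 1.86%, 1.81% and 0.697%. Complex V was lowest in rods among the first 4 types, at 1.24% (1.23 to 1.26) against 1.58% (1.43 to 1.73), 1.43% (1.39 to 1.48) and 1.63% (1.54 to 1.73), and 0.494% in microglia. Complex III reached at most 0.658% in these 4 types. Complex II, with the assembly factors Sdhaf1 to Sdhaf4 counted in it, lay between 0.0677% and 0.0925%. Between bipolar-like and Müller glia-like barcodes the complex I and complex III intervals overlapped.

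Counted by gene over non-mitochondrial UMIs, 50 of 57 measurable members (87.7%) were lower by the fold in microglia-like than in rod-like barcodes, where 68.6% of all measurable genes were, and 0 were higher, where 13.2% were. In Müller glia-like barcodes 19 of 58 (32.8%) were higher, near the background of 30.2%, and 8 (13.8%) lower beside 44.1%. In bipolar-like barcodes 11 of 75 (14.7%) were higher and 10 (13.3%) lower, both below the backgrounds of 25.4% and 37.3%. In cone-like barcodes 9 of 29 (31%) were higher beside 15.5% and 4 (13.8%) lower beside 42.2%, from only 10 barcodes of which 7 were in tag 1. The medians of the members were -1.52, 0.16, -0.0031 and 0.23, beside -1.70, -0.25, -0.20 and -0.36 over all measurable genes.

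Single subunits marked the difference between rods and the other types. On a CPM scale of non-mitochondrial UMIs, Ndufa4 had 5060 in rods, 3916 in cones, 4131 in bipolar cells, 1879 in Müller glia and 329 in microglia, so rods were highest and microglia lowest. Cox8a ran the other way, with 1940 in rods against 3809, 4219 and 3488 in cones, bipolar cells and Müller glia and 1473 in microglia, and was the highest measurable member relative to rods in both cone-like (0.98, interval 0.68 to 1.25) and bipolar-like (1.12, interval 1.02 to 1.22) barcodes. Cox4i1 had 1816 in rods, 1175 in cones, 2246 in bipolar cells, 2887 in Müller glia and 1394 in microglia. In bipolar-like barcodes the complex I subunits Ndufs3 (-2.53, interval -3.46 to -1.82) and Ndufs8 (-1.33) were lowest. In Müller glia-like barcodes Atp5d (1.46, interval 1.10 to 1.79) and Cox7a2l (1.25, interval 0.86 to 1.60) were highest. In microglia-like barcodes Ndufb11 (3 UMIs), Ndufa5 (2 UMIs) and Ndufb2 (0 UMIs) were lowest, and only Atp5d and Cox7a2l lay above 0 among the 57.

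Tissue isoforms were mostly at or near 0. Cox4i2, the isoform linked to low oxygen, had 13 UMIs in 9 Müller glia-like barcodes and 8 UMIs in 5 of 669 rods, and none in the other types. Cox6a2, the heart and muscle isoform, had 11 UMIs in 3 microglia-like barcodes and no UMI in rods, where 691 UMIs of the ubiquitous Cox6a1 were counted. Cox6b2 had 5 UMIs in 1 cone-like barcode and 6 in 2 Müller glia-like barcodes, and 0 in the 669 rod-like barcodes. In the comparison of tags, 2 of the 190 tag 1 rods held 10 UMIs of Cox6b2, so those 2 were named otherwise here. Cox7a1 had 23 UMIs in 9 rods, Ndufa4l2 had 2, and Cox7b2, Cox8b and Cox8c had 0 in every cell type.

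The make-up of the mitochondrial-coded UMIs also varied with cell type. Mt-Co1 held 6.50% of them in rods, 10.5% in cones, 8.61% in bipolar cells, 10.0% in Müller glia and 11.0% in microglia, so the pooled rods were lowest. Its share also differed between tags within rods, at 7.41% to 11.5% in tag 1 and 5.40% to 6.44% in tag 2 across bins with at least 10 rods. Cone-like barcodes numbered 7 in tag 1 and 0 in tag 2, and bipolar-like ones 0 and 31. The part of the tags in these shares was not tested. Mt-Atp6 was highest in rods at 19.4%, against 16.0% to 17.1% in the other types. Mt-Cytb held 17.0% in rods and 17.6% in cones, and 12.2% to 15.7% in the others, while mt-Nd2 ran from 2.72% in cones to 7.27% in microglia. As a whole, complex IV held 44.3% of mitochondrial-coded UMIs in rods and 47.6% to 49.6% in the other types.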

How the data were processed

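Per the labels and the study's methods, the authors aligned the reads to mm10 with Cell Ranger 6.1.2 (the header of the deposited matrix names 3.1.0) and used Scanpy 1.9.1. Which annotation release they used is not stated. The deposited expression and tag values are raw counts of UMIs per gene, or per tag, and barcode. The deposited tag calls come with the probability of a single tag, a fraction made by the authors, of which only the call was used. The study regressed mitochondrial content before its own comparisons, which was not done here. Members and lists were chosen with earlier results of these data known.

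Barcodes with 200 to 2500 genes and at most 18% mitochondrial-coded UMIs were kept, doublets were called with Scrublet in scanpy 1.11.5 at an expected 6%, and the 29 called were removed. Leiden clustering at resolution 1 left out the members, Lmna, Lbr, Malat1 and haemoglobin genes (2000 variable genes, 30 principal components, 15 neighbours), and clusters were named from marker lists, a name needing 3 markers detected in 25% of cells. These names are rebuilt, while the study trained a classifier, so cells may be named differently. UMIs were summed per gene and tag, with 0.5 added to both sums of a single gene's ratio. A log2 ratio of 0.5 was counted as past the fold, and genes needed 20 expected UMIs in both groups. With 1 pool per tag there was no test. Shares have Clopper-Pearson, sums Poisson and ratios exact conditional intervals. A count of 0 allows 3 counts. The scripts were tested on simulated data.

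Named genes were all mitochondrial-coded members, the 5 highest and 5 lowest nuclear-coded members of each pair of tags, the 2 members of each complex with most rod UMIs, the 4 Sdh subunits and isoform pairs. Some further genes were chosen after their values were seen: those named in the promoters, the cell types and the counts of 0. Positions come from GENCODE M21 on GRCm38, in which all 103 members had an identifier. The numbers of cells called to each tag equal numbers the study gives per condition, but this was not used to name the tags. Some items are not reported here.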

Additional observations from a re-analysis of the deposited data

Results flagged for a closer look

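Rod-like barcodes that are not in the tag matrix enter no comparison between tags. In these 90 barcodes, 3963 of 74409 non-mitochondrial UMIs, or 5.33% (95% Clopper-Pearson interval 5.17 to 5.49), came from nuclear-coded members. A count of 0 allows 0.00403% at this depth, which any abundant gene group exceeds, so nothing is read from this beyond the value. Their median depth was 1047 UMIs and their median mitochondrial share 32.4%, so most of them lay outside the limit of 18%.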

How the results depend on the processing

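Ratios are log2 and, where 3 are given, run in the order tag 2 over tag 1, tag 3 over tag 1 and tag 3 over tag 2. With no filter on cells the mitochondrial-coded ratios were 0.71, 0.35 and -0.36 and the nuclear-coded ones -0.12, 0.42 and 0.54. In rods with at least 90% of tag counts in the called tag they were 0.46, 0.011 and -0.45, and 0.0056, -0.023 and -0.029. The nuclear-coded ratios thus lay near 0, with the sign turned in all 3 pairs, from 55, 23 and 3 rods. In tag 2 over tag 1, 14 of 50 members were lower and 8 higher, where 21.6% and 19.1% of 435 measurable genes were. With each gene counted at most once per cell the mitochondrial-coded ratios of the first and last pair were 0.31 and -0.21 and the nuclear-coded ones -0.056 and 0.21. In the first pair 3 of 64 members were then lower and 1 higher, where 3.44% and 5.82% of 756 measurable genes were. Counted so, tag 2 over tag 1 was 0.11 at 6 to 12% and -0.15 at 12 to 18% mitochondrial share, with 0.85 between the end bins of tag 1. In rod-like barcodes with 200 to 2500 genes these 3 were -0.20, -0.36 and 0.35. Without the rod with most UMIs of each gene, over the remaining UMIs, the mitochondrial-coded ratios were 0.45, 0.36 and -0.088 and the nuclear-coded ones with tag 3 were 0.30 and 0.56. Over all UMIs of the tag the ratios with tag 3 were -0.14 and -0.56, and -0.20 and 0.088. Leaving out 1 rod per gene in this way takes a larger part from 21 rods than from 190 or 129. The sign over tag 1 turned for both, and was not read as a direction. Means over rods gave 0.44, 0.070 and -0.37 for mitochondrial-coded genes. Keeping doublets gave nuclear-coded ratios with tag 3 of 0.21 and 0.49, and taking all cells of a tag gave 0.0030 and 0.27. Without rods of 10 or more Malat1 UMIs the first pair stood at 0.35 for mitochondrial-coded and -0.34 for nuclear-coded genes, and tag 3 over tag 1 at 0.084 for the latter. In the first pair 0 of 75 members were then higher, where 17.8% of all measurable genes were. Without rods that the clustering of all barcodes gave to another type it was 0 of 76, beside 15.9%.

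Over non-mitochondrial UMIs the nuclear-coded ratio of the first pair was -0.20 with 1 of 75 members higher, and ratios to rods were 0.13 in cone-like, 0.073 in bipolar-like, 0.16 in Müller glia-like and -1.42 in microglia-like barcodes, those of bipolar-like and Müller glia-like barcodes having turned. In barcodes that pass the limits, nuclear-coded ratios to rods were -0.19, -0.23, -0.65 and -1.66 in these types, and mitochondrial-coded ones 0.024 and 0.31 in cone-like and bipolar-like barcodes, and -0.87 in Müller glia-like barcodes, which turned. At resolution 0.5 the Müller glia-like cluster held 119 barcodes, against 91 at resolution 1, and no cone-like or microglia-like cluster was found. Rod-like barcodes numbered 669 at both. The wider cluster stood at -0.71 for nuclear-coded and 1.30 for mitochondrial-coded genes, so these are not values of the 91 barcodes alone. Its nuclear-coded share was 4.49% of non-mitochondrial UMIs, below 5.39% in rods. With a log2 ratio of 1 or more, 1 of 76 members was lower and 0 higher in the first pair, 1 of 56 was higher in the second, and 1 of 51 lower and 8 higher in the last. With at least 50 expected UMIs, 1 of 71 was higher in the first pair, 1 of 25 lower and 6 higher in the second, and 1 of 21 lower and 9 higher in the last. With at least 10, 6 of 66 were lower in the last. No share over all genes is given at these limits or over non-mitochondrial UMIs, so these counts have no background beside them. Of the other values, 61 moved by less than their intervals or, for counts, within 1.5 times. The cause of these changes was not tested.

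The alternatives on Malat1, on other types, on 200 to 2500 genes, on counts at 90% and over all UMIs of the tag were chosen after seeing the data. No paired analysis was possible because each tag is 1 pool with no replicate number, and for the same reason no replicate could be left out. Under the alternatives, counts are not given where under 5 members met the minimum. The 21 rods of tag 3 limit every value of that tag.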
